A study of Mus musculus with 103 samples.

Results

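The cells described are Prom1-positive cells isolated from mouse stomach, 2 samples out of 103 in the series. They were chosen by the labels alone, as all sorted samples whose source is stomach, and no measured value was used. Each was set against sorted Prom1-positive cells of 7 other organs: small intestine (3 samples), uterus (4), kidney (4), liver (5), lung (4), prostate (3) and salivary gland (3), 26 samples in all. The labels describe all these cells as normal primary cells. Tissues were dissociated, red and dead cells were removed, and cells were held on magnetic beads coupled to an antibody against Prominin1, the membrane protein that Prom1 encodes. RNA was extracted with a PicoPure kit and hybridised to Affymetrix mouse arrays, 1 array per sample. The other sorted cells of the series are 9 samples of liver after DDC and 3 of neonatal liver, which enter only the estimate of spread. The remaining samples are tumour tissue, among them 7 gastric adenomas and 4 gastric adenocarcinomas, extracted with an RNeasy kit. The labels give no strain, genotype, age, sex, region of the stomach or replicate number. They also do not say whether 2 samples of an organ came from separate mice. The p-values below therefore measure the spread between samples of a group, which may be technical. That spread is pooled over all 40 sorted samples, so most of it comes from groups other than stomach. Where the 2 stomach samples lie far apart, the SE and p-value can understate their own spread.

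The glandular stomach is lined by pits and glands of several epithelial cell types. Surface pit cells secrete mucus and small trefoil and gastrokine proteins, neck cells secrete a second mucus, chief cells secrete digestive proenzymes, parietal cells secrete acid, and scattered endocrine cells release hormones such as gastrin. The upper part of the mouse stomach, the forestomach, is lined by squamous epithelium instead. Prom1 is used to enrich progenitor-like cells in several epithelia and is also present on mature epithelial cells.

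Values are deposited log2 levels, so a difference of 1 is a 2-fold difference. A gene was called where limma's adjusted p was under 0.05 and the log2 difference at least 1, and it was tested where at least 1 group mean passed 4.09. The table holds no detection calls. Levels near that filter lie at the low end of the arrays' range, where a difference can understate the change. Array quality measures of the stomach samples fell within the range of the other organs' arrays: their medians were 3.87 and 3.98, against 3.85 to 4.24, and the difference between the 3' and 5' actin probe sets was 0.81 and 1.37, against 0.41 to 1.8. Across genes the 2 stomach samples had a Pearson correlation of 0.961, and 245 genes lay 2 or more log2 units apart. In the 37 pairs of samples within the other organs this count had a median of 150 and ran from 0 in kidney to 3095 in lung. In RNA from many cells, fewer cells of a type and less RNA per cell cannot be told apart.

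The promoters of 6 genes among the 15 largest increases in the sorted stomach cells are printed here: the gastrin hormone gene, genes for the chief cell products Pgc and Cblif, and the 3 gastrokine genes, which lie within 1 stretch of chromosome 6. Each is the 250 bases before the transcription start, 5′ to 3′ on the gene's strand, from RefSeq (GRCm38.p6). Capitals mark TATAAA, the TATA box, or AGATAA, a motif bound by GATA factors, read on either strand. The windows are Gast at chr11:100334157-100334406 on the plus strand, Pgc at chr17:47726592-47726841 on the plus strand, Cblif at chr19:11747309-11747558 on the plus strand, Gkn1 at chr6:87350916-87351165 on the minus strand, Gkn2 at chr6:87373115-87373364 on the plus strand and Gkn3 at chr6:87388936-87389185 on the minus strand.
Gast: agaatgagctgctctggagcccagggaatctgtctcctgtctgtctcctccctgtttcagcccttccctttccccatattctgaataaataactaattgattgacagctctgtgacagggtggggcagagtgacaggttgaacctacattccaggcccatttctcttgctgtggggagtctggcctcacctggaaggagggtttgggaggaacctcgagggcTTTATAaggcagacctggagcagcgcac
Pgc: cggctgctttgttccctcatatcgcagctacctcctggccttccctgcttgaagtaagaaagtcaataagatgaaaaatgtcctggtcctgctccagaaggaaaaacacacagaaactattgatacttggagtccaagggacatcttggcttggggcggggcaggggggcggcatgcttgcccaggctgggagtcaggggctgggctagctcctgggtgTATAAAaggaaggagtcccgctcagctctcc
Cblif: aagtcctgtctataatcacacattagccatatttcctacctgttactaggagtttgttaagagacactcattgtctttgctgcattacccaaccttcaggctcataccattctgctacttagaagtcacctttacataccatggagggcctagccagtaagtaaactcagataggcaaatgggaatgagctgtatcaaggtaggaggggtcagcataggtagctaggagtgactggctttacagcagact
Gkn1: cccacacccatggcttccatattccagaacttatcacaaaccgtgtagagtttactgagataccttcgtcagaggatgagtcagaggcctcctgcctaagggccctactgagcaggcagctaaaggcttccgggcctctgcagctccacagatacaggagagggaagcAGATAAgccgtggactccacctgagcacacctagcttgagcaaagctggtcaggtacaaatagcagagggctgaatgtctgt
Gkn2: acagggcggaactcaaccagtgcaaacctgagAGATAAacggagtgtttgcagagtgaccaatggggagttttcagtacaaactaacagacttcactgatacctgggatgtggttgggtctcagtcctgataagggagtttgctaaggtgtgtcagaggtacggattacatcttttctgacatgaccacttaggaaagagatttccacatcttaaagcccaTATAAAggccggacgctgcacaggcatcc
Gkn3: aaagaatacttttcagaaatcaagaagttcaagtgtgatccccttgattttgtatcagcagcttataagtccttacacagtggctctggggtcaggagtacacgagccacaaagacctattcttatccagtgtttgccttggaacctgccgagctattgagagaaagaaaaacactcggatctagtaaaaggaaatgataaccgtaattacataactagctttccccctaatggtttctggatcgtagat
TATAAA starts 31 bases before the start in Pgc and 29 bases before it in Gkn2, and lies on the opposite strand 28 bases before it in Gast. AGATAA starts 82 bases before the start in Gkn1 and 218 bases before it in Gkn2. The windows of Cblif and Gkn3 hold neither string of letters. RefSeq promoters matched 11 of 21 leading stomach genes, with 12 windows. TATAAA occurred in 4 of these 12 windows (33.3%), against 12.4% of all 32851 promoters. AGATAA also occurred in 4 of the 12 (33.3%), against 9.99% of all. TGTTTAC, a forkhead motif, was in none of the 12 and in 3.17% of all. No 2 matches in the printed windows overlap, and a match is a description of the sequence only.

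Prom1 itself, the gene of the sort marker, was at 12.19 and 11.78 in the stomach samples. The uterus samples were at 12.16, 11.51, 11.01 and 11.49, and overlapped with stomach. Below them came kidney (mean 10.76), salivary gland (10.55), prostate (10.31) and small intestine (9.33, from 8.01 to 10.19), whose samples did not reach the stomach levels. Lung averaged 6.36 and liver 3.45. Stomach differed from the mean of the 7 organs by 3.09 (SE 0.88, adjusted p = 0.00846), a call that was lost without stomach sample 1 (2.88, adjusted p = 0.133) and without stomach sample 2 (3.29, adjusted p = 0.0671). It was also lost when liver, the lowest organ, was left out of the mean (2.18, adjusted p = 0.0676). The differences from uterus (0.44, SE 1.03) and small intestine (2.66) did not pass the test. Prom1 was the target of the sort, so its level is not independent of how the cells were obtained, and its only probe set carries a name that marks possible cross-hybridisation.

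Against the mean of the 7 organs, 1195 of 13053 genes were higher in stomach cells (9.15%) and 1308 were lower (10.0%). Without stomach sample 1 the counts were 816 and 651, and without stomach sample 2 they were 1083 and 741. For 476 of the higher genes both stomach samples lay above the group mean of every other organ, and for 366 of the lower genes both lay below. Gast, which encodes the acid-stimulating hormone gastrin, was at 13.49 and 12.56 in stomach samples, against a lowest, median and highest of 2.62, 3.11 and 5.92 in the 26 other samples. Its highest values elsewhere were in small intestine, and no sample there came within 6 log2 units of stomach. The difference was 9.72 (SE 0.33, adjusted p = 1.97e-22), an 842-fold higher level.

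Cblif encodes gastric intrinsic factor, which binds vitamin B12. It was at 13.13 and 12.50 in stomach and between 2.74 and 4.02 in the other samples (difference 9.58, SE 0.20, adjusted p = 9.87e-29). Pgc, the proenzyme progastricsin, was at 12.76 and 12.69 in stomach and between 2.75 and 4.63 elsewhere (difference 9.42, SE 0.26, adjusted p = 3.43e-25). Both genes were at low levels in all 26 other samples, and the groups were far apart. Unlike them, the gastrokine and trefoil genes were also above the floor in small intestine. Of the 6 trefoil and gastrokine genes, 5 were called higher than the 7-organ mean. Tff3 was not called (difference 1.29): it was at 7.25 and 5.85 in stomach, against a mean of 12.55 in its highest organ. Against small intestine alone, 5 of the 6 were called higher and 1 lower.

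The gastric cell markers check the labelled organ, and most members of the pit, neck and chief cell lists were higher in both samples than in the mean of the other organs. Of the 9 surface pit cell markers, 8 were measured, 7 were called higher and 1 lower, with a median difference of 6.73, against 0.03 over all genes. Gkn1 and Gkn2 encode gastrokines, proteins secreted by the gastric surface. Gkn2 was at 13.63 and 13.90 in stomach and at 9.38 to 12.17 in small intestine, while its mean over the 7 organs was 4.38 (difference 9.38, SE 0.44, adjusted p = 1.04e-18). Gkn1 was at 13.23 and 13.59 in stomach and at 7.54 to 10.83 in small intestine, with a difference of 9.04 from the 7 organs. Tff1, a trefoil peptide that protects the mucosa, was at 13.92 and 14.03 in stomach and at 8.78 to 12.02 in small intestine. All 3 genes were higher in both stomach samples than in every other sample, and 1 of the 3 small intestine samples was lower in each than the other two. Muc5ac, the main gel-forming mucin of the gastric surface, was at 10.58 and 12.39 in stomach against at most 6.33 in the other samples (difference 7.66, SE 0.41). Psca, a surface antigen, was at 9.39 and 11.08 (difference 6.08). Muc1, a membrane mucin, was at 10.17 and 11.11 in stomach and averaged 9.68 in uterus, from which it did not differ beyond the test (0.97, adjusted p = 0.272). The single lower member was Gsdma, a gasdermin, at 2.61 and 2.62 in stomach; its mean over the other organs was set by prostate, at 10.30.

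**Figure D1:**
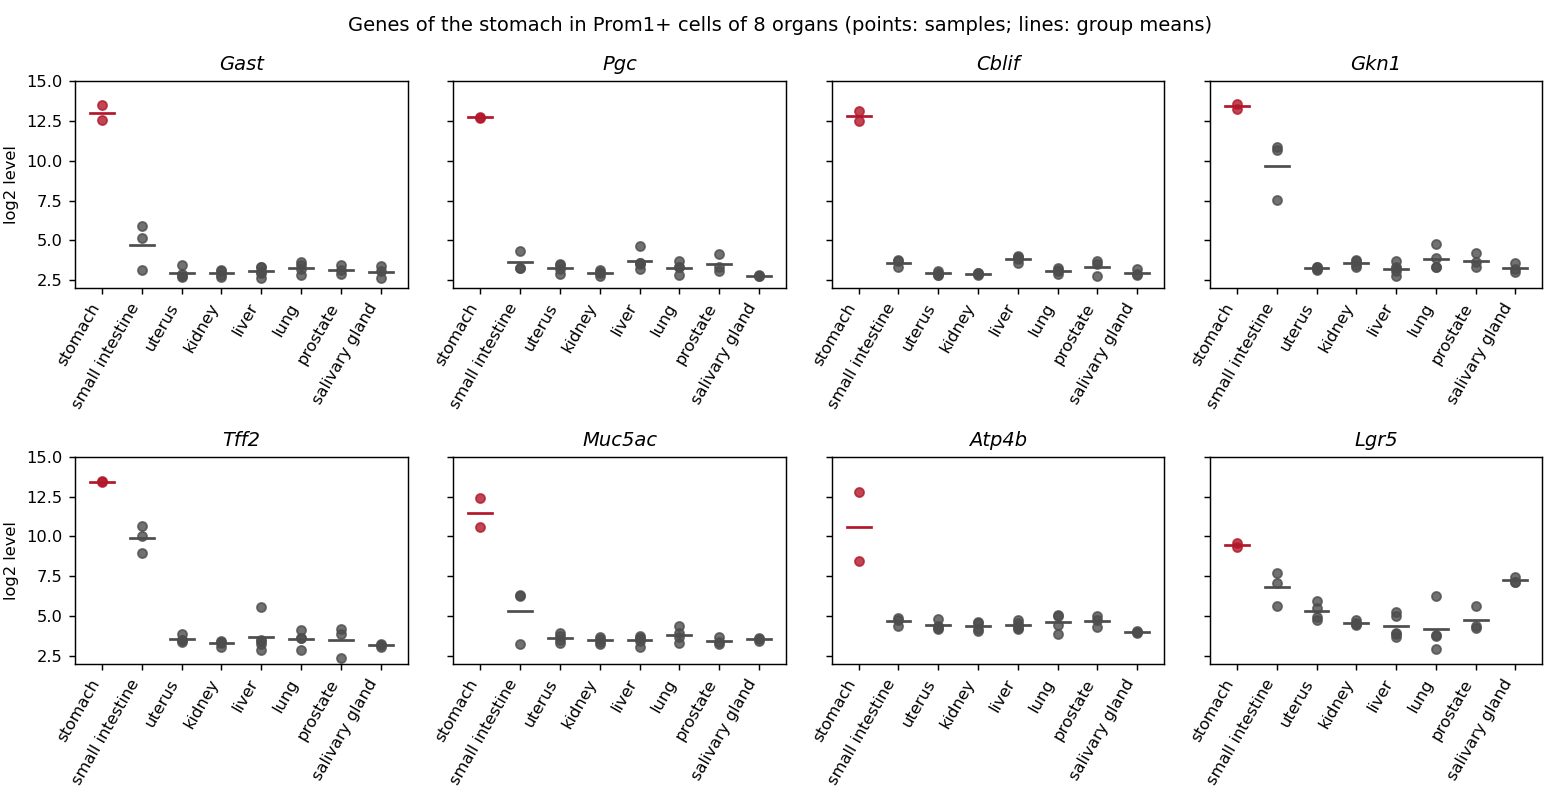
Log2 level of chosen stomach genes, 1 per panel, with 1 point per sample and organs along the x axis, stomach first. The genes are Gast, Pgc, Cblif, Gkn1, Tff2, Muc5ac, Atp4b and Lgr5, which are not a ranking by size of increase. The stomach samples of Gast lie at 13.49 and 12.56, and no other sample passes 5.92.

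All 5 measured markers of mucous neck cells were called higher, with a median difference of 7.70. Gkn3 was at 13.82 and 13.89 in stomach and at 9.27 to 10.41 in small intestine. Tff2, a trefoil peptide of neck cells, was at 13.45 and 13.42 in stomach and at 8.93 to 10.67 in small intestine. The 2 stomach samples were alike for both, and small intestine is the next organ. A4gnt, the transferase that caps neck cell mucin glycans, was at 11.54 and 11.95 in stomach, and the next organ was salivary gland with a mean of 6.64. Aqp5, a water channel, was at 11.59 and 11.52 in stomach, but salivary gland averaged 11.78, so it separates stomach from most of the other organs and not from that one. Cftr, the chloride channel, was at 9.36 and 8.15 in stomach and averaged 8.5 in small intestine.

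Chief cell markers were called higher in 4 of 6 measured members (5 tested), with a median difference of 5.38. Beside Pgc and Cblif these were Pga5, a pepsinogen A gene at 8.5 and 10.23 in stomach and at most 3.89 elsewhere, and Chia1, the acidic chitinase, at 8.54 and 10.52. Chia1 was at 13.47 on average in salivary gland, higher than in stomach. Bhlha15, a factor of zymogenic cells, was at 6.48 and 6.3 in stomach and averaged 10.85 in prostate, and it was not called (difference 0.09, adjusted p = 0.886). Lipf, the gastric lipase gene, was at 2.76 and 2.93 in stomach and was below the filter in all groups. The wider aspartic protease list had 4 of 7 measured members higher (median 5.0), among them Ctse, an intracellular protease of the gastric surface, at 13.10 and 13.27 in stomach, and Bace2 at 11.13 and 11.34.

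Parietal cell markers differed between the 2 stomach samples. Atp4b, the beta subunit of the gastric proton pump, was at 8.43 in stomach sample 1 and 12.76 in stomach sample 2. It was at most 5.06 in the other organs (difference 6.15, SE 0.45, limma adjusted p = 3.35e-13). This SE is pooled over all sorted groups and is small beside the gap between the 2 stomach samples. Atp4a, the catalytic subunit, was at 6.92 and 11.11, and kidney averaged 7.41. Both pump genes were about 4 log2 units higher in sample 2. Kcne2, a potassium channel subunit of parietal cells, was at 4.16 and 8.54 in stomach; its call (difference 3.01) was lost without stomach sample 2 (0.82, adjusted p = 0.539). Kcnq1, the channel that Kcne2 joins, was at 9.39 and 9.72, and Clic6, a chloride channel family member, at 9.28 and 10.81. The highest mean of another organ was 8.97 for Kcnq1 and 8.46 for Clic6. Against small intestine alone, 3 of 8 tested parietal markers were called higher and 1 lower, with a median difference of 0.56. In all, 6 of 10 measured parietal markers (8 tested) were called higher, with a median difference of 2.17; the count was 7 without stomach sample 1 and 4 without stomach sample 2.

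**Figure D2:**
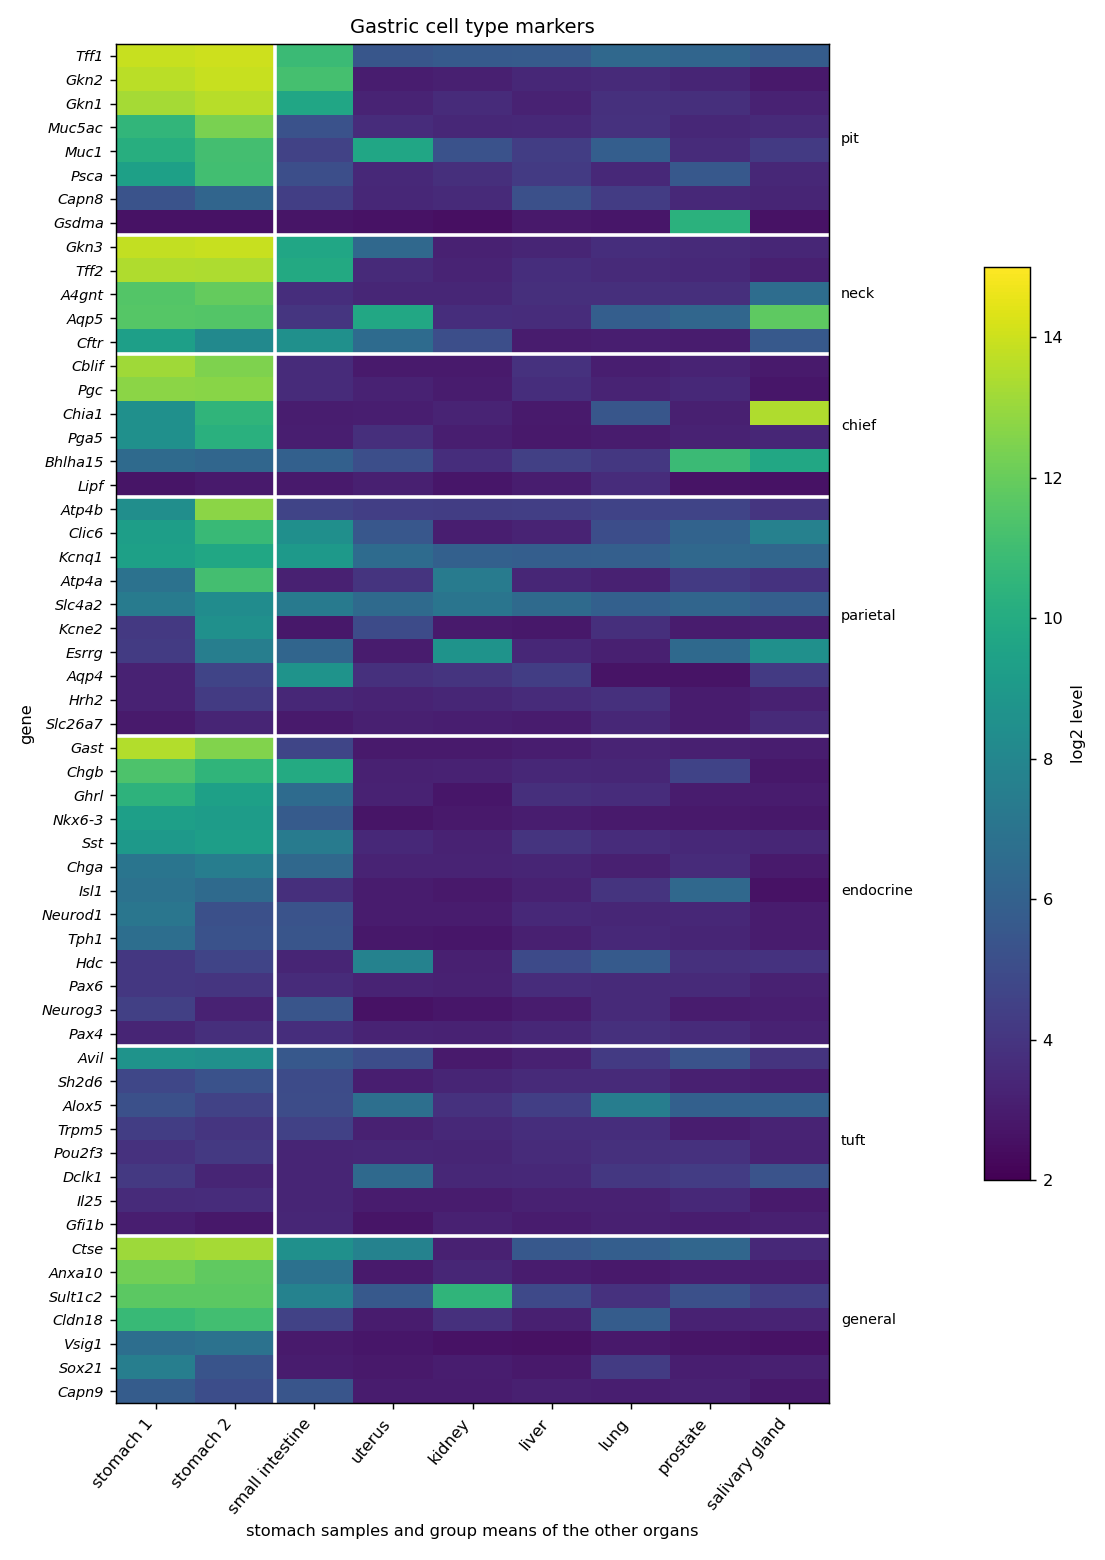
Log2 level of gastric cell markers (rows, grouped by cell type) in the 2 stomach samples and as the mean of each other organ (columns). Atp4b is at 8.43 in stomach sample 1 and 12.76 in stomach sample 2, while Pgc is alike in both, at 12.76 and 12.69.

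Endocrine cell markers were called higher in 9 of 13 measured members (11 tested), with a median difference of 3.0. After Gast, the largest was Chgb, a granin of hormone granules, at 11.39 and 10.50 in stomach with small intestine averaging 9.96. Ghrl, the gene of the hunger hormone ghrelin, was at 10.42 and 9.39 in stomach and averaged 6.52 in small intestine (difference from the 7 organs 6.2, SE 0.28). Sst, which encodes somatostatin, an inhibitor of gastrin and acid release, was at 8.97 and 9.29 in stomach and averaged 7.41 in small intestine (difference from the 7 organs 5.04, SE 0.25). For Gast, Ghrl and Sst both stomach samples lay above every other sample. Chga was at 7.04 and 7.49, Tph1, the serotonin synthesis enzyme, at 6.69 and 5.25, and the transcription factor Neurod1 at 7.09 and 5.19. Tph1 and Neurod1 were both higher in stomach sample 1, and stomach sample 2 lay below the highest mean of another organ (5.41 for Tph1 and 5.33 for Neurod1). Hdc, at 4.09 and 4.68 (difference -0.27), and Neurog3, at 4.45 and 3.23 (0.49), were not called. Hdc averaged 7.74 in its highest organ, above both stomach samples. Pax4 and Pax6 were below the filter. Against small intestine alone, 5 of 11 tested endocrine markers were called higher and 1 lower, with a median difference of 0.98. Summed on the linear scale, the endocrine markers reached a log2 level of 14.08 and 13.26 in stomach and 10.15 to 11.22 in small intestine. Tuft cell markers were called higher in 2 of 8 measured members (5 tested), with a median difference of 0.47. One of these was Avil, an actin-binding protein of tuft cells, at 8.68 and 8.51 in stomach against at most 6.24 in the other samples. The other was Sh2d6, at 4.75 and 5.28 (difference 1.48). Dclk1, at 4.14 and 3.37 (difference -0.60), Alox5 (-0.77) and Trpm5 (0.64) were not called. Pou2f3, Gfi1b and Il25 were below the filter, so most of the list did not follow Avil.

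All 7 general gastric epithelial genes were called higher (median difference 5.70). Anxa10, an annexin, was at 12.24 and 11.81 in stomach, 8.44 above the mean of the other organs. Cldn18, the tight junction protein of stomach and lung, was at 10.74 and 11.04 in stomach, and lung, the next organ, averaged 5.76. Vsig1, a junction protein, was at 6.68 and 6.92 in stomach and at most 3.43 elsewhere. Sult1c2, a sulfotransferase, was at 11.70 and 11.74 in stomach, and kidney averaged 10.52. Of the genes that build mucin glycans, 12 of 19 measured (18 tested) were called higher and 1 lower, with a median of 1.43; without stomach sample 1 the counts were 9 and 0. Gcnt3, which branches mucin glycans, was at 11.43 and 11.48 in stomach (difference 7.41), Chst4, a glycan sulfotransferase, at 8.14 and 8.46 (difference 5.01), and Galnt12, which starts mucin O-glycans, at 10.15 and 10.14 (difference 4.23). Secretory genes of the endoplasmic reticulum were called higher in 4 of 27, with a median of 0.19, near that of all genes.

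Transcription factors that pattern the gut and other organs gave 18 higher and 5 lower calls among 42 measured (39 tested), with a median difference of 0.46. Without stomach sample 1 the counts were 17 and 3, and without stomach sample 2 they were 15 and 5. Nkx6-3, a homeobox factor of gastrin-producing cells, was at 9.35 and 9.21 in stomach and averaged 5.75 in small intestine (difference from the 7 organs 5.99, SE 0.17, adjusted p = 3.43e-25). Nkx6-2 was at 7.23 and 7.16 in stomach and at most 3.68 in any other sample. Sox2, a factor of the foregut, was at 8.87 and 8.12 in stomach and averaged 9.11 in salivary gland, while its small intestine samples lay between 2.55 and 2.84.

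Pdx1, Gata4 and Gata6, factors of stomach and duodenum, were higher than in the mean of the 7 organs by 3.72, 3.74 and 4.21. Their levels in small intestine were close to those of stomach: the differences from it were -0.61, 0.06 and -0.07 and passed no test. The forkhead factors Foxa1 (11.20 and 10.94), Foxa2 (9.32 and 9.40), Foxa3 (8.83 and 8.98) and Foxq1 (9.64 and 9.67) were also called higher, as was Spdef (9.67 and 9.65), a factor of mucous cells. Foxa1 averaged 11.15 in prostate and did not set stomach apart from it. The lower factors included Tbx3 at 3.88 and 3.97 in stomach (difference -3.25) and Hoxa10 at 3.24 and 2.88 (-1.78). Hoxa10 was highest in uterus, with a mean of 7.91, and Tbx3 in prostate, with a mean of 10.16. The 3 probe sets of Tbx3 gave differences from -3.25 to -0.08.

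**Figure D3:**
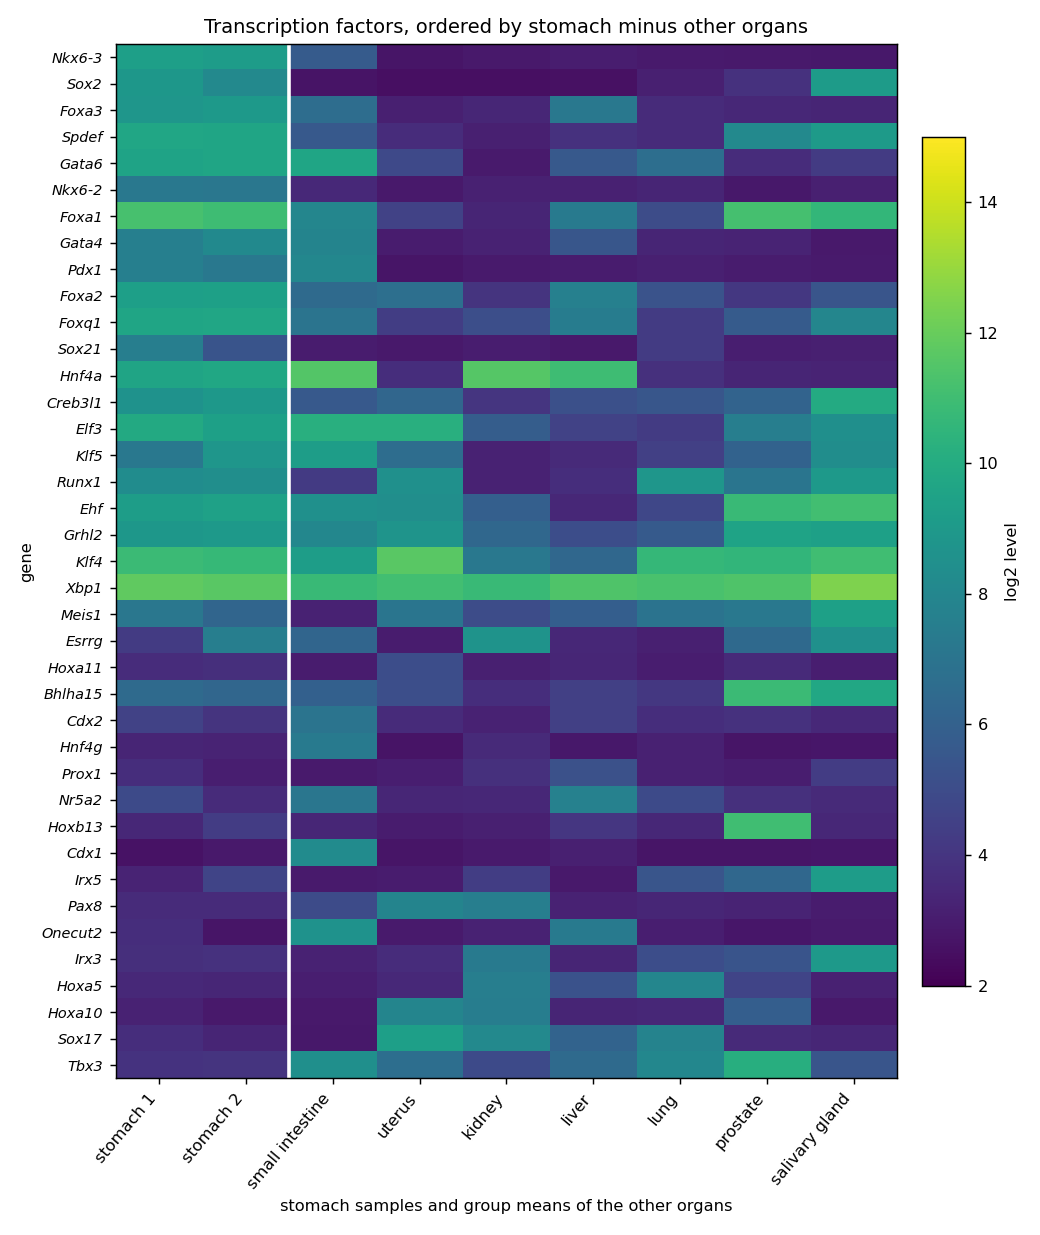
Log2 level of the tested transcription factors (rows, ordered by stomach minus the mean of the other organs) in the 2 stomach samples and as the mean of each other organ (columns). Nkx6-3, at the top, is at 9.35 and 9.21 in stomach, and Tbx3, at the bottom, at 3.88 and 3.97.

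Stem cell and Wnt target genes were called higher in 9 of 19 measured members (18 tested) and lower in 0, with a median difference of 1.38; the higher count was 7 without stomach sample 1 and 8 without stomach sample 2. Lgr5, a receptor that marks stem cells of pyloric glands and intestinal crypts, was at 9.35 and 9.60 in stomach. The samples of salivary gland were at 7.11 to 7.48 and those of small intestine at 5.64, 7.05 and 7.71, so no other sample overlapped with stomach. The difference from the 7 organs was 4.16 (SE 0.64, adjusted p = 5.66e-06), but its 2 probe sets gave 4.16 and -0.12. Ascl2, a Wnt-driven factor of crypt stem cells, was at 7.05 and 7.02, Lrig1, a brake on ErbB receptors, at 9.58 and 9.54, and Cd44 at 11.68 and 11.24. Ascl2 reached 7.40 in 1 small intestine sample, above both stomach samples. Against small intestine alone, 4 of 18 tested members of this list were called higher and 1 lower, with a median difference of 0.61. Against uterus alone, 5 of 18 were called higher and 0 lower (median 0.84).

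Proliferation genes were called higher in 18 of 21 and lower in 0, with a median of 2.13. Ube2c, which drives exit from mitosis, was at 10.30 and 9.26 in stomach (difference 3.98), Birc5 at 9.41 and 8.47 (3.84) and Cdk1, the mitotic kinase, at 9.52 and 8.5 (3.16). All 3 were about 1 log2 unit higher in stomach sample 1. Without that sample 4 of the 21 were called, and without sample 2 the count was 19. The summed level was 12.70 and 11.70 in stomach, 12.36 to 13.11 in small intestine, 10.80 to 11.42 in uterus and 7.91 to 10.44 in the other 5 organs. Against small intestine 1 gene was called in each direction, so the difference from the 7-organ mean is not one from that organ. Against uterus 2 of the 21 were called higher and 0 lower (median 1.02). Of 21 DNA replication genes, 0 were called higher against small intestine (median -0.61) and 0 against uterus (median 0.08). Their summed level was 13.05 and 12.24 in stomach and 12.37 to 13.08 in uterus. The counts that follow are again against the 7-organ mean. DNA replication genes were called higher in 12 of 21 (median 1.40), in 1 without stomach sample 1 and in 12 without stomach sample 2.

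Among genes of acid and bicarbonate transport, 7 of 13 were called higher and 3 lower, and without stomach sample 1 the counts were 6 and 1. Slc9a3, a sodium-proton exchanger, was at 10.96 and 11.38 in stomach and averaged 9.29 in kidney, the next organ (difference from the 7 organs 5.49, SE 0.21). Car9 and Car2, carbonic anhydrases that supply bicarbonate, were higher than the 7-organ mean by 3.94 and 2.82. Among alcohol and retinol enzymes, 5 of 20 were called higher and 3 lower; the counts were 3 and 1 without stomach sample 1 and 4 and 0 without stomach sample 2. Aldh3a1, an aldehyde dehydrogenase, was at 8.82 and 8.95 in stomach and at most 6.07 elsewhere. Adh7, the alcohol dehydrogenase of the upper digestive tract, was at 9.02 and 7.29 in stomach and at most 5.71 elsewhere.

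Mucosal defence genes gave 5 higher and 1 lower call among 13, and 3 higher calls without either stomach sample. Bpifb1, a secreted protein of mucosal surfaces, was at 8.65 and 9.18 in stomach and at most 5.81 elsewhere. Lcn2, an iron-sequestering defence protein, was at 3.21 and 3.32 in stomach, against 12.49 on average in uterus. Tight junction genes gave 3 higher and 4 lower calls among 21 (20 tested), where 9.15% and 10.0% of all genes were called. Without stomach sample 1 there were 2 of each, and without stomach sample 2 there were 2 and 3. Cldn2, a pore-forming claudin, was at 11.35 and 11.63 in stomach and averaged 11.34 in kidney, while Cldn10 was at 3.45 and 3.14 in stomach and averaged 11.30 in salivary gland. Of the ErbB ligands, Btc was at 7.64 and 7.44 in stomach and at most 5.41 elsewhere, and Egf at 3.0 and 3.59, against 12.49 on average in salivary gland. Ihh, a hedgehog ligand of gut epithelium, was at 6.64 and 6.95 in stomach and averaged 6.31 in small intestine (difference from the 7 organs 2.50).

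Decreases are described first for genes whose stomach samples both lay below the mean of every other organ. Enpep, glutamyl aminopeptidase, was at 3.83 and 3.53 in stomach, against a lowest, median and highest of 6.68, 9.71 and 12.08 in the other samples (difference -5.62, SE 0.45, adjusted p = 4.29e-12). Cd302, a C-type lectin receptor, was at 4.72 and 3.82 in stomach and at 7.43 to 11.32 elsewhere (difference -5.34, SE 0.28, adjusted p = 2.15e-17). For both genes no other sample reached down to the stomach levels. Tgm2, a transglutaminase, was at 5.74 and 5.04 in stomach and at least 7.39 elsewhere. Further such decreases included the chemokine Ccl3 (difference -4.71), the Fc receptor chain Fcer1g (-4.56), the protease Ctss (-4.54) and the macrophage pore protein Mpeg1 (-4.48), which myeloid cells express, as well as the enzymes Fmo1 (-4.49), a monooxygenase, and Npl (-4.33), which cleaves sialic acid.

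Of the 12 macrophage markers, 11 were called lower and 0 higher, with a median difference of -3.52; 9 were called lower without stomach sample 1 and 8 without stomach sample 2. Mrc1, the mannose receptor, was at 4.38 and 3.45 in stomach (difference -5.23, SE 0.72), and the complement gene C1qb at 5.99 and 4.18 (difference -4.51, SE 0.76). The summed macrophage level was 9.49 and 9.22 in stomach and 8.69 to 8.91 in kidney, the lowest organ. It was 12.39 to 12.86 in small intestine, 14.79 to 15.31 in uterus and 11.92 to 15.16 in the other organs. Gene by gene, however, only 1 of 9 tested markers was called lower against small intestine, with a median difference of -0.30, and Mrc1 differed by -0.40 (adjusted p = 0.824). The called gene was Lyz2, a lysozyme, named here after its values were seen; it was at 8.56 in both stomach samples and averaged 12.49 in small intestine. MHC class II genes, which antigen-presenting cells use, were called lower in 6 of 7 (median -2.25), in 0 without stomach sample 1 and in 5 without stomach sample 2. Their invariant chain Cd74 was at 6.22 and 8.96 in stomach, and its own call (difference -2.54) was lost without sample 1 (-1.17, adjusted p = 0.432). Of the class II genes, 0 of 6 tested were called lower against small intestine (median -1.10) and 7 of 7 against uterus (median -4.36). Their summed level was 9.18 and 11.30 in stomach and 10.21 to 10.55 in kidney. The part that a different share of myeloid cells in the sorted fractions had in the other differences was not tested.

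Markers of fibroblasts gave 0 higher and 2 lower calls among 9 (median -1.04), where 10.0% of all genes were lower, and 1 lower call without stomach sample 1. Endothelial markers gave 0 higher and 2 lower among 12 (median -1.18), and no call without either stomach sample. The 9 lymphocyte markers (8 tested) gave no call by limma, with differences from -1.0 to 0.68. Neutrophil and mast cell markers gave 1 higher and 1 lower call among 12 (9 tested), and the lower call was lost without either stomach sample. The higher one was Mcpt2, a protease of mucosal mast cells, at 8.0 and 6.84 in stomach and at most 4.29 elsewhere (difference 4.43, SE 0.25, adjusted p = 1.66e-16). The other mast cell markers did not follow it: Kit (-1.10), Cma1 (-0.48) and Cpa3 (-0.33) were not called, and Mcpt1 and Ms4a2 were below the filter.

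**Figure D4:**
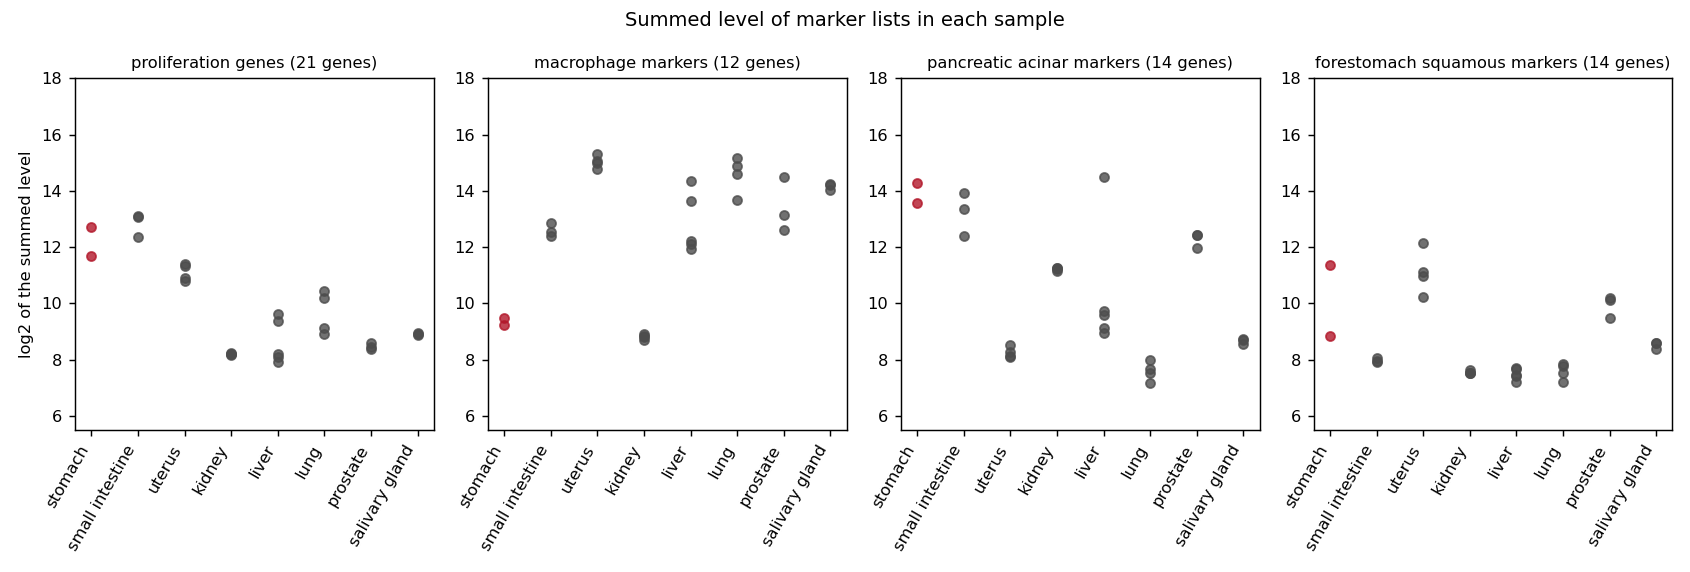
Summed level of marker lists (log2 of the sum of linear levels, y axis) in each sample, by organ along the x axis with stomach first. The stomach samples sit at 9.49 and 9.22 for macrophage markers, just above kidney at 8.69 to 8.91.

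Genes of pancreas, squamous epithelium and liver were present in the stomach samples as well. Clps, which encodes colipase of the pancreas, was at 12.29 and 12.48 in stomach and at 9.94 to 10.90 in small intestine. Cela1, an elastase, was at 13.04 and 12.50 in stomach. Amy2a5, pancreatic amylase, was at 11.27 in sample 1 and 7.04 in sample 2, and its call (difference 4.72) was lost without sample 1 (2.60, adjusted p = 0.284). Clps and Cela1 were thus high in both samples, while Amy2a5 was high in sample 1. Of 14 measured acinar markers (12 tested) 4 were called higher; the count was 2 without sample 1 and 8 without sample 2. The summed acinar level was 14.29 and 13.56 in stomach and 12.40 to 13.92 in small intestine.

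The squamous markers showed the reverse pattern. Krtdap, a keratinocyte protein, was at 5.10 in sample 1 and 10.06 in sample 2, against at most 3.62 in the other organs (difference 4.48, SE 0.46). Its SE too is pooled over all sorted groups and is small beside the gap between the 2 stomach samples. Krt13, a keratin of stratified epithelium, was at 3.71 and 7.98, and its call (difference 2.26) was lost without sample 2 (0.13, adjusted p = 0.864). Trp63, a factor of basal squamous cells, was at 2.88 and 3.31, below the filter in both samples. Of 14 measured squamous markers (11 tested) 8 were called higher; the count was 9 without sample 1 and 1 without sample 2. Their summed level was 8.83 and 11.38 in stomach and 10.21 to 12.13 in uterus. Sample 2 was thus higher in squamous and parietal genes, and sample 1 in pancreatic and proliferation genes. Whether these differences between the samples had a part in the other results was tested only by leaving out each sample, and the counts above give that.

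Hepatocyte markers gave 4 higher and 5 lower calls among 11, and 3 lower without stomach sample 2. Ttr, a carrier of thyroid hormone, was at 11.82 and 11.55 in stomach (difference 4.16), and Alb at 8.60 and 7.85 (difference 2.55). Trf, transferrin, was at 5.52 and 4.16 (difference -4.54), so against the 7-organ mean the liver genes did not move as a group. Liver is itself 1 of these 7 organs, with a summed marker level of 15.97 to 16.75, against 12.38 and 12.59 in stomach. Compared with small intestine, 3 of 8 tested markers were higher and 1 was lower. Compared with uterus, 4 of 7 tested markers were higher and 1 was lower.

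**Figure D5:**
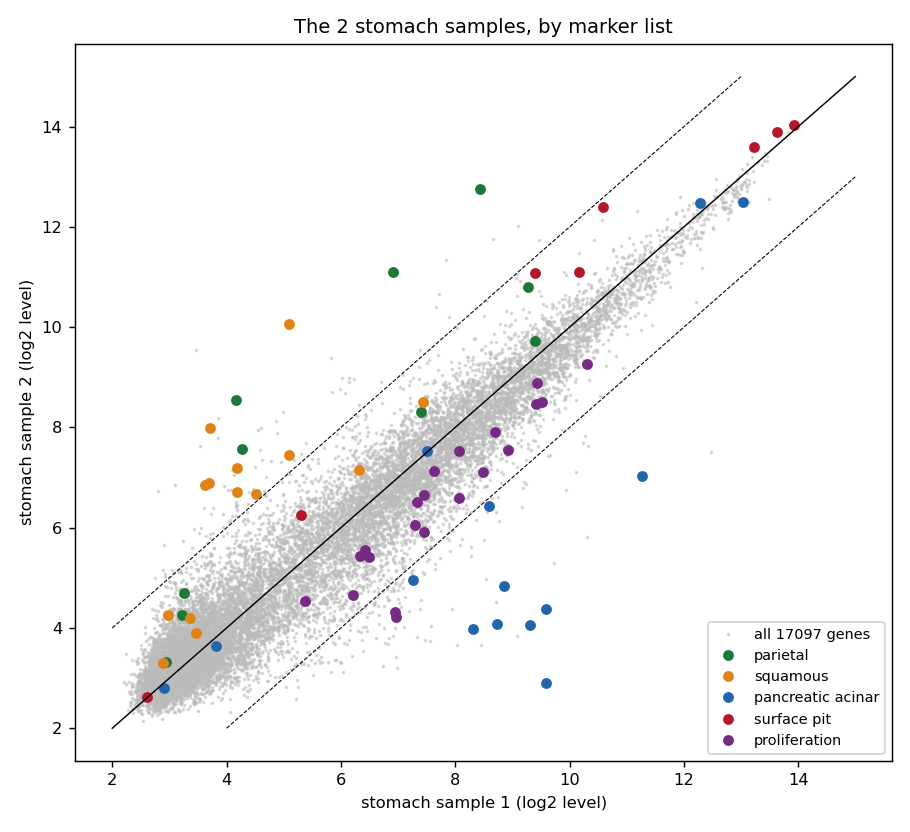
Log2 level of each gene in stomach sample 1 (x axis) against stomach sample 2 (y axis), with members of the parietal, squamous, acinar and other lists coloured. Krtdap lies at 5.10 and 10.06 and Amy2a5 at 11.27 and 7.04, on opposite sides of the diagonal.

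Each organ was also compared with stomach on its own. Genes called in either direction made up from 16.8% of those tested against small intestine to 42.3% against lung. A gene was then called only where all 7 comparisons passed together. By this stricter test 109 genes (0.835%) were higher in stomach and 12 (0.0919%) were lower. Pgc had the largest of these smallest differences, 9.02 (SE 0.30) over its nearest organ, followed by Cblif (8.97, SE 0.23) and Gast (8.29, SE 0.42). Psapl1, at 9.10 and 12.03 in stomach, was at most 5.49 elsewhere. Gsdma2, a gasdermin, was at 9.70 and 10.46 in stomach and at most 4.33 elsewhere. Vsig2, a membrane protein of the immunoglobulin family, was at 10.92 and 11.40 in stomach and at most 5.96 elsewhere. For these 3 genes the lowest stomach sample lay more than 3 log2 units above the highest other sample. Pla2g1b, a secreted phospholipase, was at 9.06 and 10.97, but its 4 probe sets gave differences from -0.01 to 7.47. The organ nearest to stomach was small intestine for 40 of the 109 genes, uterus for 17, prostate and salivary gland for 14 each, lung for 11, kidney for 7 and liver for 6. Among the 12 lower genes were Cd302 (-3.77 from its nearest organ), Enpep (-3.55) and Tgm2 (-2.50). When all probe sets of a gene were averaged, Tgm2 was no longer called (-1.41, adjusted p = 0.193). Without stomach sample 1 or stomach sample 2 the lower count was 7.

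Small intestine, the other gut epithelium, differed from stomach in 1834 of 10917 genes (16.8%), with 885 higher in stomach (8.11%) and 949 lower (8.69%). The largest increases were Cblif (9.21), Pgc (9.11), Gast (8.29) and A4gnt (8.06). A further one was Mup3, a major urinary protein of liver, at 12.22 and 10.51 in stomach and 3.01 to 3.48 in small intestine; liver averaged 13.45, and its probe set carries a name that marks possible cross-hybridisation. The largest decreases were Defa39, an antimicrobial defensin of Paneth cells, at 4.16 and 3.91 in stomach and 12.35 to 13.56 in small intestine, then Adh6a (-8.89), Arg2 (-8.82) and Cyp3a11 (-8.81). Enterocyte markers were called lower in 9 of 10 and higher in 0 (median -6.31). Fabp1, the fatty acid binding protein of enterocytes, was at 4.24 and 4.89 in stomach, against 12.98 to 13.30 in small intestine. Goblet markers gave 1 higher and 6 lower calls (median -2.81), and all 4 tested Paneth markers were lower. The transcription factors gave 12 higher and 8 lower calls. Sox2 was higher in stomach by 5.80 (SE 0.27), while the intestinal factors Cdx1 (-5.48, SE 0.26) and Onecut2 (-5.40, SE 0.88) were lower.

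Uterus, whose Prom1 level was the nearest to that of stomach, differed in 3321 of 11423 genes (29.1%), with 1202 higher in stomach (10.5%) and 2119 lower (18.6%). After quantile normalization the counts were 1751 and 1786, so the share of higher genes among the calls moved to 49.5%, against 36.2% on the deposited values. The largest increases were Gkn2 (10.70), Gkn1 (10.15), Gast (10.08), Cblif (9.89) and Tff2 (9.88), all of them stomach products. The largest decreases were Sprr2f, a cornified envelope protein induced in uterus, at 3.10 and 3.13 in stomach and 12.01 to 12.83 in uterus, then Lcn2 (-9.23), Prap1 (-8.64), Ccl3 (-8.18) and Bcat1 (-8.07). All 12 macrophage markers and all 9 fibroblast markers were lower in stomach than in uterus.

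Gastric tumours were measured as dissected tissue extracted with another kit, so their levels are given as a description without a test. Of the 109 genes higher in sorted stomach cells than in each other organ, 87 (79.8%) had a mean in adenomas above every other organ's sorted mean, against 10.9% of all 13053 genes. In adenocarcinomas the number was 34 (31.2%), against 17.1% of all genes. The 109 genes were chosen for being lower in these same organs than in stomach, and the genes tested as a whole were not. Part of each gap from the share of all genes is therefore set by that choice. Gkn1 was at 13.26 to 13.77 in the 7 adenomas and 4.21 to 10.60 in the 4 adenocarcinomas. Cblif was at 9.08 to 12.67 in adenomas and 2.73 to 3.08 in adenocarcinomas, and Pgc was at 4.42 to 11.40 in adenomas and 2.93 to 3.29 in adenocarcinomas. The adenocarcinomas were thus low for both chief cell genes. Ctse was high in both, at 12.74 to 13.35 in adenomas and 11.97 to 12.86 in adenocarcinomas. Gast, at 13.49 and 12.56 in the sorted cells, was at 3.05 to 8.78 in adenomas (median 3.40) and 2.64 to 2.83 in adenocarcinomas. Krtdap was at most 2.99 in adenomas and 3.16 in adenocarcinomas, near the lower end of the array.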

How the data were processed

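Sorted Prom1-positive cells and tumours were hybridised to arrays, and the deposited table holds log2 levels made by the authors with Partek 6.6, per the submitters' processing notes; how background was corrected and arrays normalized is not stated in these sources. Of 45141 probe sets, 28898 had a single gene, and 17097 genes were kept, each by the probe set with the highest mean over the 40 sorted samples. limma 3.58.1 (R 4.3.3) was fitted to those 40 samples in 10 groups, with an intensity trend and Benjamini-Hochberg adjustment over all genes tested, those with a group mean over the 40th percentile of fitted values (4.09). Stomach was contrasted with the mean of 7 organ means, with each organ at once by the largest of 7 p-values, and with small intestine and uterus. Group sizes limit the precision. Named genes were Prom1, the 15 largest increases and 10 largest decreases among called genes whose 2 stomach samples both lay beyond the mean of every other organ, the 10 and 5 most extreme against each organ at once, the 5 largest each way against small intestine and uterus, members of the gastric lists and of the trefoil, gastrokine and transcription factor lists, and up to 4 members of each other list. The members, lists and tests were chosen with earlier results of these data known. The 41 lists hold 538 genes, of which 487 were measured. The script was tested on simulated data.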

Additional observations from a re-analysis of the deposited data

Results flagged for a closer look

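In 36 groups of 4 or more samples, the gap of the highest or lowest sample to its neighbour was set against the group's range, and 4 gaps were larger than Dixon's 95% critical value. Chance gives about 1 such gap in 20 groups. In gastric adenocarcinoma, Gkn1 was at 4.21 in 1 sample and between 9.52 and 10.60 in the others. In gastric adenoma, Prom1 was at 2.87 in 1 sample and between 9.88 and 11.93 in the others. Among the sorted lung samples, Prom1 was at 5.30 in 1 and between 6.6 and 6.79 in the others. The summed level of the pancreatic acinar markers was 14.5 in 1 liver sample and between 8.94 and 9.75 in the other 4, while stomach was at 14.29 and 13.56.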

How the results depend on the processing

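No paired analysis was possible because the labels give no replicate numbers. Changing the normalization, filter, probe set rule, prior, array weights, samples in the fit or organs in the mean gave 736 to 1431 higher and 1048 to 1584 lower genes against the 7 organs, where 1195 and 1308 were reported. The 736 came from a comparison with only the uterus and small intestine samples whose title numbers lie near those of the stomach samples, a possible order of processing. In that comparison these genes were no longer called higher: Prom1 (1.22, adjusted p = 0.442), Ube2c (0.60), Birc5 (0.55), Cdk1 (0.20), Lrig1 (1.27), Kcnq1 (1.69), Cftr (1.29), Amy2a5 (2.64) and Ihh (0.91). Bhlha15, which was not called, changed sign when all probe sets of the gene were averaged (-0.24) and when kidney (-0.34), liver (-0.22), lung (-0.27) or uterus (-0.1) was left out of the mean. Against each organ at once the range was 90 to 147 higher and 7 to 34 lower genes, where 109 and 12 were reported. The 7 came from averaging all probe sets of each gene and the 34 from requiring each of the 7 adjusted p-values to pass. Other settings gave 652 to 1018 higher and 804 to 1051 lower genes against small intestine, and 889 to 1751 and 1724 to 2311 against uterus.

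Leaving out each of the 28 samples in turn gave 816 to 1253 higher and 651 to 1412 lower genes against the 7 organs. It gave 101 to 116 and 7 to 17 against each organ at once, 664 to 947 and 691 to 1026 against small intestine, and 1066 to 1257 and 1631 to 2195 against uterus. The lower count of 651 arose without stomach sample 1, and 741 without stomach sample 2. Without either stomach sample stomach is 1 array, assumed to vary like the other groups. With 2 stomach samples, a difference between organs cannot be told apart from one between processing days, which the labels do not give.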

Other observations

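The largest differences between the 2 stomach samples included genes outside the gastric lists, picked after their values were seen. Prss2, a pancreatic trypsinogen, was at 9.59 in sample 1 and 2.90 in sample 2. Gip, a hormone of duodenal endocrine cells, was at 9.09 in sample 1 and 3.84 in sample 2, and the kallikrein Klk1 was at 12.48 and 7.52. Krt6b, a keratin of stratified epithelium, was at 3.46 in sample 1 and 9.54 in sample 2. Of the 245 genes that lay 2 or more log2 units apart, 151 were higher in sample 1 and 94 in sample 2.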
